A study of Mus musculus with 6 samples.

Results

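The immediate early genes are 10 rows of an expression table of 35857 genes, taken by symbol: the transcription factor genes Fos, Fosb, Junb, Egr1, Egr2, Egr4, Npas4 and Nr4a1, the synaptic gene Arc, and Ier2. All 10 were found in the table, and all 10 reached the mean of 1 TPM that was asked of a gene before testing. Polyadenylated RNA was sequenced on the Ion Proton from the cortex of 7-day-old (P7) C57BL/6 mice: 3 brains labelled Qk-/- (Qk_KO replicates 1 to 3) and 3 labelled wild type (Control replicates 1 to 3). Quaking, the product of Qk, binds RNA in glia and neural progenitors, and the title of the series asks how it bears on the turn from neurogenesis to gliogenesis. How Qk was deleted, and in which cells, is not given in the sources used here.

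Immediate early genes are transcribed within minutes of a stimulus, such as synaptic activity or a growth factor, from transcription factors already present in the cell, and their messages are short-lived. In neurons, calcium entry and kinase signalling act on CREB, on serum response factor with its partners, and on MEF2 at the promoters and enhancers of these genes. Most of their products are transcription factors that set off a later wave of genes, while Arc acts at the synapse, in the removal of AMPA receptors from the membrane. Their level in dissected tissue also depends on what the animal went through just before death, and glia and vessel cells make several of them.

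The level of Qk checked the labels. Qk was at 14.6, 15.2 and 15.4 TPM in the Qk_KO libraries, against 36.5, 43.2 and 41.3 TPM in the Control libraries. TPM is a transcript abundance scaled by gene length to the same total in each library, so levels of different genes can be compared, but the number of reads behind a value is unknown. Of 14994 genes tested, limma called 58 at an adjusted p under 0.05. Of 10 markers of cortical excitatory neurons none was at 0. Slc17a7, the vesicular glutamate transporter, averaged 515 ± 12.9 TPM in Qk_KO and 499 ± 13 TPM in Control cortex (SD, n = 3 each). In whole tissue, fewer cells of a type and less RNA per cell cannot be told apart. The p-values rest on the spread among 3 brains a group.

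The promoters are shown first because the genes are known for what binds there. RefSeq promoter windows (GRCm38.p6) were at hand for Fos, Fosb, Junb, Egr2, Egr4, Npas4 and Nr4a1, and not for Egr1, Arc and Ier2. The 250 bases before the annotated start were searched on both strands for TGACG, the core of the CRE that CREB binds (CGTCA on the other strand), for the CArG box of serum response factor, and for TATAAA or TATATA. All 7 genes held at least 1 TGACG in a window (Egr2 has 5 windows, the others 1 each), a sequence present in 17.8% of 32851 windows of the same length. By gene, 5347 of 27025 held TGACG in at least 1 window, and 439 held a CArG box. The stretches printed below were 58.4% (Fos), 61.6% (Egr2), 74.4% (Nr4a1) and 66.4% (Junb) G or C, against a median of 52.4% over all windows. That difference was not taken into account. A CArG box was found for Egr2 alone among the 7, against 1.47% of all windows, and a TATA motif for Fos, Egr4 and Npas4, against 15.6%. The palindrome TGACGTCA was in none of the 7 and in 1.55% of all windows. Promoter elements and enhancers further upstream lie outside these windows, so a motif not found here can still lie beyond the 250 bases. A match is a description of the letters, not a bound site. Shown are 3 genes whose Qk_KO values all lay above the Control values (Fos, Egr2, Nr4a1) and 1 whose groups overlapped at a steady level (Junb). Capitals mark TGACG or CGTCA, the CArG box and the TATA motif, each written 5′ to 3′ towards the gene. The Egr2 and Nr4a1 stretches lie within the annotated spans of their own genes. Overlap of the stretches with exons was not checked.
Fos (chr12:85473640-85473889, plus strand): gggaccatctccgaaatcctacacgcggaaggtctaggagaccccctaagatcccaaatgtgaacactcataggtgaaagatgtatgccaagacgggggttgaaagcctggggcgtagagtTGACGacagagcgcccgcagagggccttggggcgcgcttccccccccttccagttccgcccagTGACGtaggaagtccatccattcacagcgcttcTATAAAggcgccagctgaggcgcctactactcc
Egr2 (chr10:67537619-67537868, plus strand, the third of 5 annotated starts): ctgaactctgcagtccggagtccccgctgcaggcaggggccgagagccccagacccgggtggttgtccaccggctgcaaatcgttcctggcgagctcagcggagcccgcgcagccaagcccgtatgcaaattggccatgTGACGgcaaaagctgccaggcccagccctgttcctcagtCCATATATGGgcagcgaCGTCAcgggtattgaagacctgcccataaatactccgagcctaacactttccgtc
Nr4a1 (chr15:101266596-101266845, plus strand): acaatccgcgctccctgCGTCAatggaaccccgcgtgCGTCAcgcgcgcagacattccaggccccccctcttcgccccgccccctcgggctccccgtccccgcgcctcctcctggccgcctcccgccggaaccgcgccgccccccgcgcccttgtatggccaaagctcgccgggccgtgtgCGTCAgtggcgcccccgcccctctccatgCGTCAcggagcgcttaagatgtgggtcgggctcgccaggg
Junb (chr8:84978749-84978998, minus strand): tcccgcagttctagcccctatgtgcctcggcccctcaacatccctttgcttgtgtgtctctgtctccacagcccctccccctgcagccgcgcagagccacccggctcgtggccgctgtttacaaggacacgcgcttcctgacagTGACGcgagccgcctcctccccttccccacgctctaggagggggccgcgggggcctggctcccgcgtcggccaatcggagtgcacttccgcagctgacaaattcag

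Counted back from the start, with -1 as the last base before it, Fos had TGACG at -129 and -66 and its TATA motif at -33. Egr2 had its CArG box at -72 between TGACG at -111 and CGTCA at -55. Nr4a1 had CGTCA 4 times, at -233, -213, -69 and -40, and Junb had 1 TGACG, at -106. All 7 genes with a promoter window held the CRE core, so its presence cannot distinguish genes whose groups did not overlap from the others.

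The 3′ ends were compared as well, since AUUUA elements shorten the life of messages and quaking binds ACUAAC or ACUAAU. In the 3′ UTRs of GENCODE transcripts, written here in DNA letters, Fos had 4 ATTTA, Nr4a1 and Egr2 had 3 each, Egr1 and Junb had 2 each, Fosb and Npas4 had 1 each, and Arc, Egr4 and Ier2 had 0. Of 13099 tested genes with a 3′ UTR, 67.5% held at least 1 ATTTA. Per kilobase, Nr4a1 (5.53) and Fos (4.91) lay at percentiles 94.8 and 93.1 of tested genes, followed by Junb (4.12, percentile 89.7), while Egr2 lay at percentile 73.2 and Egr1 at 58.2. The quaking motif was found in Fos (2 copies, overlapping) and Egr2 (2 copies) and in 32.3% of tested genes. The densest ATTTA site of Fos and of Nr4a1 and the quaking motif of Fos are shown, with the elements in capitals.
Fos, ATTTA: aacgtttttattgtgttttcaATTTATTTA
Nr4a1, ATTTA: gATTTAtatttgtgtattttcctggATTTA
Fos, quaking motif: ttttctcatagcACTAACTAATctgttggg

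Egr1, Egr2, Nr4a1 and Fos had all 3 Qk_KO values above all 3 Control values, but none of the 10 genes passed the test over all genes. For Nr4a1 the separation was a near tie, at 30.86 TPM in Qk_KO replicate 3 and 30.84 TPM in Control replicate 1. Qk_KO values lay wholly above Control values in 4 of the 10, a separation found in 5.2% of the 14994 tested genes. They lay wholly below in 0 of the 10, against 8.98% of tested genes. limma called 0 of the 10, against 0.387% of tested genes, while the same 4 genes had an unadjusted p under 0.05, which 8.72% of tested genes had (1307 genes). That count of 4 depends on single libraries: without Control replicate 2 it was 1 (Egr1), and without Qk_KO replicate 1 it was 2 (Egr1, and Arc with a negative log2 change). The log2 change was positive in 8 of the 10, against 43.0% of tested genes. The median log2 change of (TPM + 1) was 0.23 for the 10 genes and -0.03 for all tested genes. The 10 were chosen with results of these data known, so these counts carry no test.

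**Figure D1:**
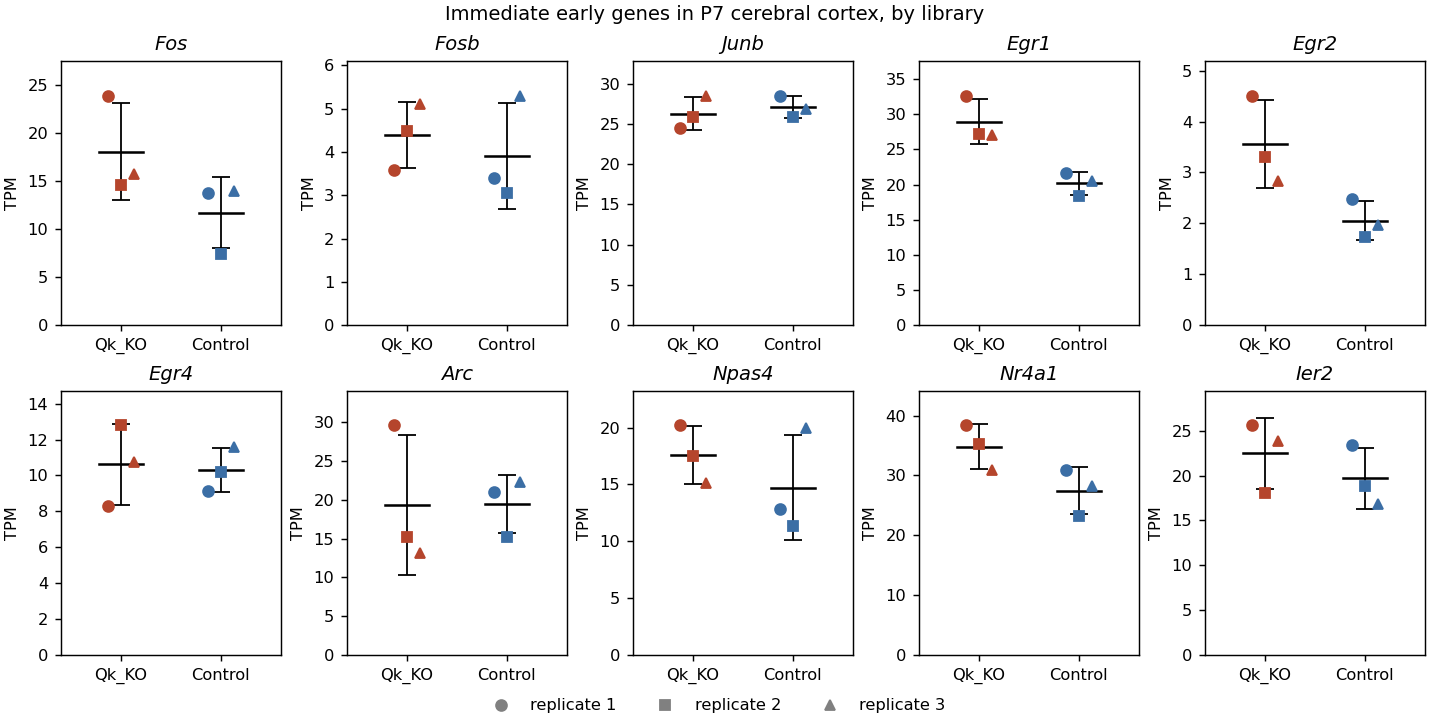
TPM of the 10 immediate early genes in each library. Red points are Qk_KO and blue points Control libraries, symbols give the replicate number, and black bars give the mean and SD of 3 libraries. The groups do not overlap for Fos, Egr1, Egr2 and Nr4a1, and Arc spreads from 13.1 to 29.6 TPM within Qk_KO cortex.

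Egr1, a zinc-finger transcription factor used as a marker of recent activity, had the smallest p of the 10. It was at 32.7, 27.2 and 27.1 TPM in Qk_KO cortex, against 21.6, 18.4 and 20.5 TPM in Control cortex. The lowest Qk_KO library was above the highest Control library. The means were 28.96 ± 3.21 TPM in Qk_KO and 20.2 ± 1.65 TPM in Control cortex (SD, n = 3 each), a ratio of 1.44. The log2 change was 0.50 (SE 0.109, 95% interval 0.25 to 0.75), which did not pass over all genes (limma, adjusted p = 0.139), and it ranged from 0.41 to 0.55 when each library was left out in turn. Egr1 (Entrez 13653) lies on the plus strand of chromosome 18, from 34859823 to 34864984 in GRCm38.

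Egr2, a relative known for myelination by Schwann cells and for hindbrain patterning, was rarer than Egr1. It was at 4.51, 3.31 and 2.84 TPM in Qk_KO cortex, against 2.47, 1.73 and 1.96 TPM in Control cortex. Its groups did not overlap. The log2 change was 0.57 (95% interval 0.10 to 1.04; limma, adjusted p = 0.468). At this low level the log2(TPM + 1) scale understates a change: the ratio of the means was 1.73. Egr4, the third of these zinc-finger genes, did not separate the groups. It was at 8.31, 12.8 and 10.8 TPM in Qk_KO cortex, against 9.13, 10.2 and 11.6 TPM in Control cortex, with a log2 change of 0.03 (95% interval -0.34 to 0.40). Qk_KO libraries held both its lowest and its highest value. Egr2 (Entrez 13654) lies on chromosome 10 from 67535475 to 67542188, plus strand, and Egr4 (Entrez 13656) on chromosome 6 from 85511121 to 85513589, minus strand.

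Fos, whose protein pairs with Jun proteins as the factor AP-1, was at 24.0, 14.6 and 15.8 TPM in Qk_KO cortex, against 13.8, 7.47 and 14.0 TPM in Control cortex. The groups did not overlap, but the nearest values were 14.6 and 14.0 TPM, and 1 library of each group stood away from the other 2. The ratio of the means was 1.54 and the log2 change 0.60 (SE 0.249, 95% interval 0.03 to 1.16; limma, adjusted p = 0.549). Without Control replicate 2 the log2 change was 0.33, and without Qk_KO replicate 1 it was 0.39. Its relative Fosb was at 3.59, 4.49 and 5.11 TPM in Qk_KO cortex, against 3.39, 3.04 and 5.30 TPM in Control cortex. The highest Fosb value was a Control library, and the groups overlapped (log2 change 0.15, 95% interval -0.32 to 0.63). The log2 change of Fosb was 0.03 without Control replicate 2, 0.06 without Qk_KO replicate 3, 0.09 without Control replicate 1, 0.27 without Qk_KO replicate 1 and 0.35 without Control replicate 3. Junb, a Jun protein that partners Fos, was at 24.4, 25.8 and 28.5 TPM in Qk_KO cortex, against 28.5, 25.8 and 26.9 TPM in Control cortex. Junb overlapped almost wholly, and its interval of the log2 change, -0.26 to 0.17, was the narrowest of the 10. Fos (Entrez 14281) lies on chromosome 12 from 85473890 to 85477273, plus strand. Fosb (Entrez 14282) lies on chromosome 7 from 19302696 to 19310051 and Junb (Entrez 16477) on chromosome 8 from 84974484 to 84978718, both on the minus strand.

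Nr4a1, an orphan nuclear receptor also called Nur77, was the most abundant of the 10. It was at 38.4, 35.2 and 30.9 TPM in Qk_KO cortex, against 30.8, 23.2 and 28.3 TPM in Control cortex. The groups touched, with Qk_KO replicate 3 and Control replicate 1 nearly equal. The log2 change was 0.34 (SE 0.125, 95% interval 0.05 to 0.62; limma, adjusted p = 0.478), and 0.22 without Control replicate 2. Npas4, a factor induced by calcium entry in neurons, was at 20.2, 17.5 and 15.1 TPM in Qk_KO cortex, against 12.8, 11.3 and 19.99 TPM in Control cortex. Control replicate 3 reached the Qk_KO range, and the log2 change was 0.27 (95% interval -0.17 to 0.72; limma, adjusted p = 0.753). It was 0.12 without Control replicate 2, 0.18 without Qk_KO replicate 1 and 0.50 without Control replicate 3 (limma, adjusted p = 0.472 for the last). Nr4a1 (Entrez 15370) lies on chromosome 15 from 101254269 to 101274795, plus strand, and Npas4 (Entrez 225872) on chromosome 19 from 4984355 to 4990316, minus strand.

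Arc was at 29.6, 15.2 and 13.1 TPM in Qk_KO cortex, against 20.9, 15.3 and 22.3 TPM in Control cortex. Qk_KO libraries held both the highest and the lowest Arc value, and the means, 19.3 ± 8.99 TPM in Qk_KO and 19.5 ± 3.72 TPM in Control cortex (SD, n = 3 each), lay close together. That closeness rests on Qk_KO replicate 1: without it the log2 change was -0.42 (limma, adjusted p = 0.633), against -0.08 with all 6 libraries. The interval of its log2 change, -0.69 to 0.53, was the widest of the 10 and spans changes in either direction. Ier2, a short gene of a nuclear protein, was at 25.6, 18.0 and 23.9 TPM in Qk_KO cortex, against 23.4, 18.9 and 16.8 TPM in Control cortex. Its groups overlapped (log2 change 0.18, 95% interval -0.18 to 0.54). It was 0.08 without Control replicate 3, 0.09 without Qk_KO replicate 1, 0.31 without Control replicate 1 and 0.33 without Qk_KO replicate 2. Arc (Entrez 11838) lies on chromosome 15 from 74669083 to 74672570 and Ier2 (Entrez 15936) on chromosome 8 from 84661331 to 84662852, both on the minus strand.

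**Figure D2:**
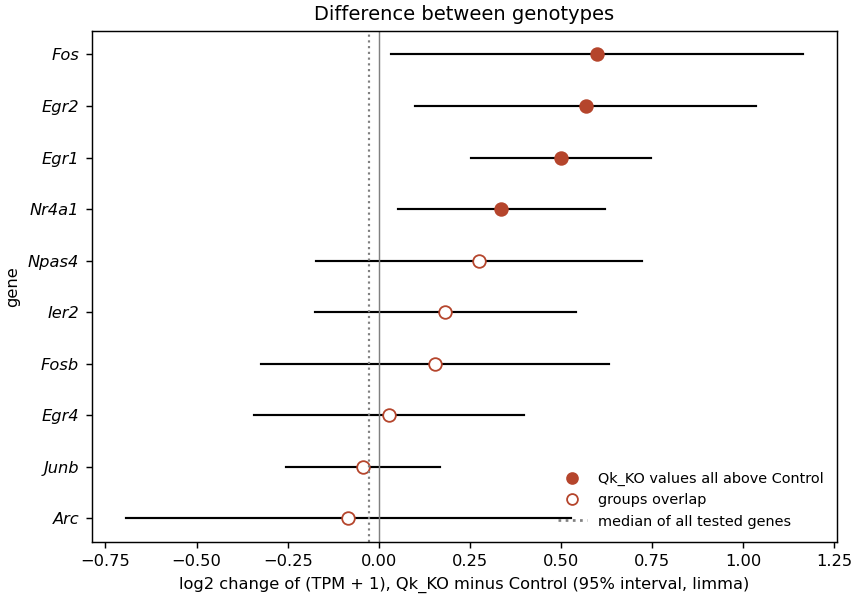
Log2 change of (TPM + 1), Qk_KO minus Control, with 95% intervals from limma, for the 10 genes. Filled points mark genes whose Qk_KO values all lay above the Control values; the dotted line is the median of all tested genes, -0.03. The intervals of Fos, Egr2, Egr1 and Nr4a1 lie above 0 and those of the other 6 span it.

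Spread between brains of one genotype was wide for most of the 10. The residual SD of log2(TPM + 1) around the group means had a median of 0.237 for the 10 genes and 0.149 for all tested genes. Against the 500 tested genes nearest in mean TPM, 7 of the 10 had an SD above the middle of that range. Fos lay at percentile 98.2 of those genes, Arc at 96.8, Npas4 at 95 and Ier2 at 92.2. Nr4a1 was at percentile 79, Egr4 at 76.4, Fosb at 64 and Egr1 at 49.6. Egr2, at percentile 39, and Junb, at 22.2, varied less than most genes of their level. Over all 6 libraries, which includes the difference between genotypes, Fos differed 3.21-fold between its highest and lowest value, Egr2 2.61-fold, Arc 2.26-fold and Junb 1.17-fold. The coefficient of variation of Egr1 was 11.1% in Qk_KO and 8.20% in Control cortex, and that of Fos was 28.1% in Qk_KO and 31.6% in Control cortex. For Arc it was 46.6% in Qk_KO and 19.1% in Control cortex. These are descriptions of 6 libraries, without a test.

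**Figure D3:**
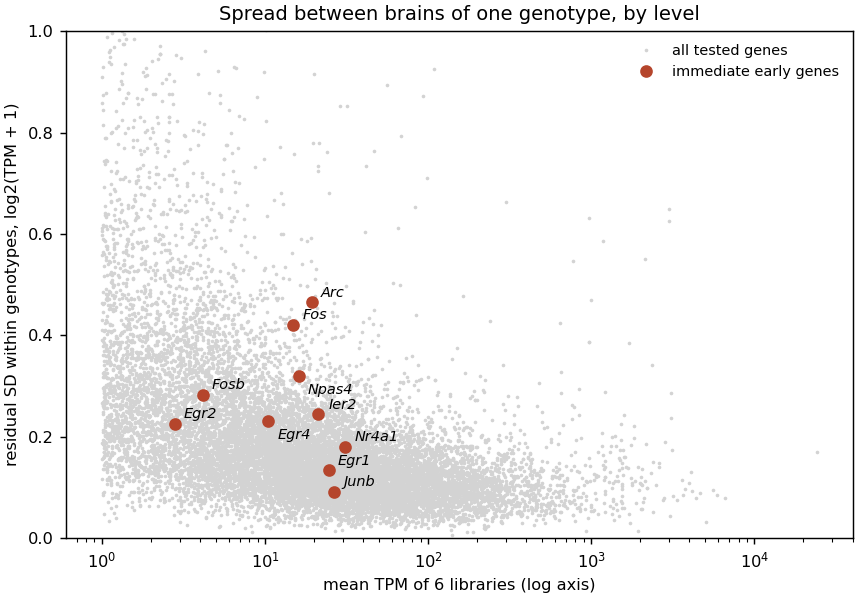
Residual SD of log2(TPM + 1) within the genotypes against mean TPM of the 6 libraries (log axis). Grey points are all tested genes, of which 164 lie above the top of the axis, and red points are the 10 immediate early genes. Fos and Arc, at percentiles 98.2 and 96.8, lie near the upper edge of the genes of their level, and Junb, at 22.2, lies in the lower part.

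Egr1, Egr2, Nr4a1, Fos and Arc were mostly high or low in the same libraries within a genotype. In Control replicate 3, Egr2 lay just under its group mean (-0.04), while Fos (0.28) and Arc (0.20) lay above theirs. In Qk_KO replicate 2, Nr4a1 lay just above its group mean (0.02), while Fos (-0.26) and Arc (-0.24) lay under theirs. After subtracting each group's mean, Pearson's r over the 6 libraries was 0.94 for Egr1 with Egr2, 0.93 for Fos with Egr1, 0.87 for Egr1 with Nr4a1 and 0.86 for Fos with Nr4a1. Arc, whose groups overlapped, had r = 0.94 with Egr1 and 0.90 with Egr2 on the same scale. Without removing the group means, Arc with Egr1 had r = 0.27 (p = 0.622, adjusted p = 0.824) and rho = 0.09 (p = 0.919, adjusted p = 0.962, exact permutation), and r was -0.97 without the 2 libraries farthest from the median of Egr1. Among these 5 genes, singled out after their values were seen, the 10 coefficients ran from 0.78 to 0.94. They ran from 0.63 to 0.94 without Qk_KO replicate 1 and from 0.65 to 0.96 without Control replicate 2. The points share libraries and a fixed TPM total, and few degrees of freedom remain once group means are removed.

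Egr4 ran against that pattern, with r of -0.71 to Egr1, -0.71 to Egr2, -0.63 to Arc and -0.90 to Ier2. Fosb and Junb were near 0 or negative with Egr1, at -0.20 and -0.22. Fosb was highest with Egr4 (0.65). Npas4 lay between, at 0.69 with Fos and 0.52 with Egr1. Of all 45 pairs, 27 were positive on this scale, which is 60% of the pairs, against 51.2% of the pairs of all tested genes.

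**Figure D4:**
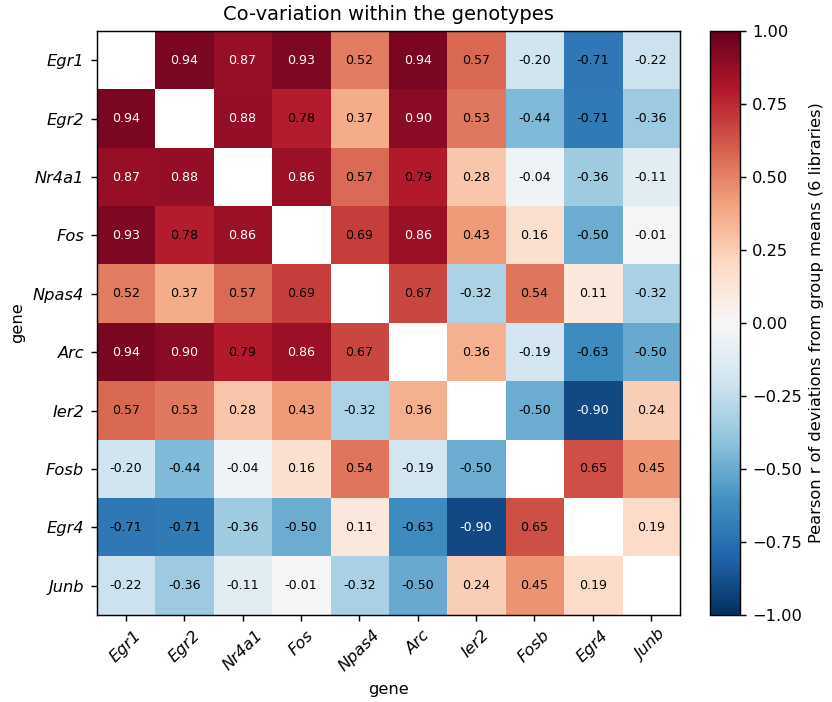
Pearson's r of the deviations from the group means of log2(TPM + 1), over 6 libraries, for each pair of genes. Red is positive and blue negative. Egr1, Egr2, Nr4a1, Fos and Arc form the red block of 0.78 to 0.94, and Egr4 is negative with each of them.

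Without removing the group means, 30 of the 45 pairs (66.7%) had a positive Pearson's r, against 51.5% of the pairs of all tested genes. Of these 30, 21 stayed positive without the 2 libraries farthest from the median of 1 gene of the pair. The exact permutation test over the 6 libraries (two-sided, 720 orders) gave an unadjusted p under 0.05 for 6 pairs by Pearson's r and for 6 by Spearman's rho. All 6 were pairs among Fos, Egr1, Egr2 and Nr4a1, whose groups do not overlap, so the pooled coefficient also holds the difference between genotypes and is not given for them. With Benjamini-Hochberg adjustment over the 45 pairs, 0 passed by Pearson's r (lowest adjusted p = 0.0625, exact permutation) and 3 by rho (adjusted p = 0.0417, exact permutation). Those 3 were Egr1, Egr2 and Nr4a1 with each other, which put the 6 libraries in the same order. The orders were permuted across both genotypes, so these p-values also hold the difference between genotypes. They do not test whether the 3 genes vary together within a genotype. Of the other 39 pairs, Fos with Npas4 had the smallest p (r = 0.77, p = 0.0583, adjusted p = 0.375; rho = 0.77, p = 0.103, adjusted p = 0.578, exact permutation). That relation rests on the outer libraries, since r was -0.09 without the 2 libraries farthest from the median of Fos.

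Single libraries stood out across the list. Qk_KO replicate 1 held the highest of the 6 values for 7 genes (Fos, Egr1, Egr2, Arc, Npas4, Nr4a1 and Ier2) and the lowest for Junb and Egr4. Control replicate 2 held the lowest value for 6 genes (Fos, Fosb, Egr1, Egr2, Npas4 and Nr4a1) and lay under its group mean in all 10. The summed TPM of the 10 genes was 211, 174 and 173 in Qk_KO libraries, against 167, 135 and 167 in Control libraries. The median deviation from the group mean, over the 10 genes, was 0.18 for Qk_KO replicate 1 and -0.19 for Control replicate 2, while over all tested genes it was 0.001 and -0.02. Without Qk_KO replicate 1 the median log2 change of the 10 genes was 0.22, without Control replicate 2 it was 0.14, and without Control replicate 3 it was 0.35.

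**Figure D5:**
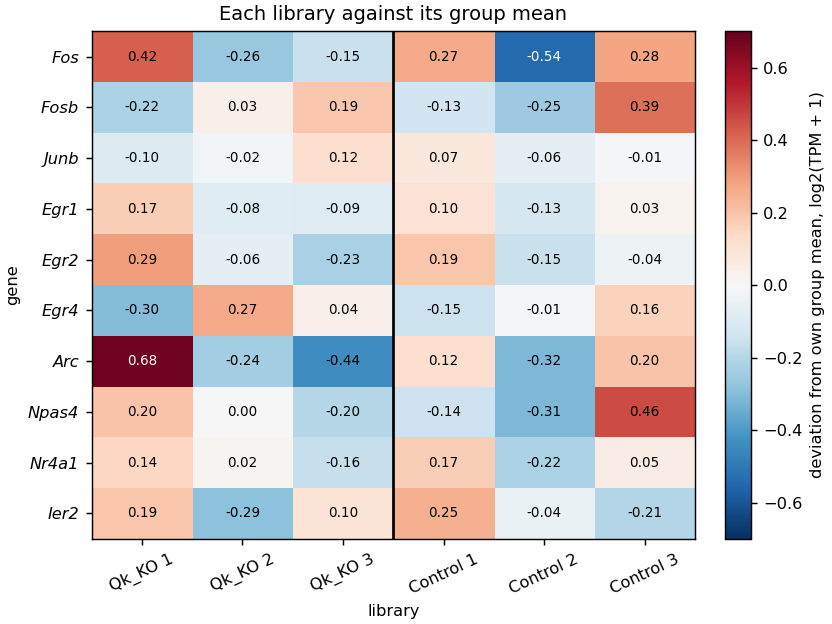
Deviation of each library from the mean of its own group, in log2(TPM + 1), for the 10 genes. Columns 1 to 3 are Qk_KO and the next 3 Control libraries; red is above and blue below the group mean. Qk_KO replicate 1 is red for 7 genes, Arc most of all, and Control replicate 2 is blue for all 10.

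Other rapid transcription factors, relatives of the 10 genes among them, separated the groups about as often as tested genes at large. Of 20 other rapid transcription factors, 19 were tested, and limma called 0 in either direction, against 0.387% of tested genes. An unadjusted p under 0.05 was found for 0, against 8.72% of tested genes. A positive log2 change was found for 12, against 43.0% of tested genes, and the median was 0.05. Qk_KO values lay wholly above Control values in 1 of the 19 (Fosl2), against 5.2% of tested genes, and wholly below in 1 (Jun), against 8.98%. Egr3, a paralogue of Egr1, averaged 30.1 ± 2.06 TPM in Qk_KO and 29.1 ± 1.76 TPM in Control cortex. Nr4a2 averaged 31.3 ± 0.601 and 31.6 ± 6.81 TPM, and Nr4a3 24.7 ± 1.78 and 23.7 ± 1.51 TPM, in Qk_KO and Control cortex (SD, n = 3 each). These 3 were named after their values were seen. Among the most abundant, Jund averaged 114 ± 16.4 TPM in Qk_KO and 102 ± 7.68 TPM in Control cortex, and Nfil3, a basic leucine zipper repressor, 43.3 ± 6.17 and 45.6 ± 4.596 TPM. Jun, the main AP-1 partner of Fos, was at 54.6, 54.3 and 40.4 TPM in Qk_KO cortex, against 57.5, 55.6 and 59.1 TPM in Control cortex. Its 3 Qk_KO values lay below the Control values, the opposite of Fos (log2 change -0.21; limma, adjusted p = 0.667).

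Some genes that damp the early response were higher in every Qk_KO library than in any Control library, though none passed the test. Of 20 such feedback regulators, all tested, limma called 0, against 0.387% of tested genes. An unadjusted p under 0.05 was found for 5, against 8.72% of tested genes. The log2 change was positive for 12, against 43.0% of tested genes, and the median was 0.09. Qk_KO values lay wholly above Control values for 3 of the 20 (Dusp6, Spry2 and Spry4), against 5.2% of tested genes, and wholly below for 0, against 8.98%. Spry2, an inhibitor of receptor tyrosine kinase signalling, was at 47.7, 41.5 and 40.2 TPM in Qk_KO cortex, against 33.0, 33.5 and 29.2 TPM in Control cortex (log2 change 0.42, SE 0.0975; limma, adjusted p = 0.173). Dusp6, a phosphatase that acts on MAP kinases, was at 49.8, 43.2 and 42.5 TPM in Qk_KO cortex, against 35.0, 38.6 and 35.9 TPM in Control cortex (log2 change 0.30; limma, adjusted p = 0.352). The lowest Qk_KO library lay above the highest Control library for both. Gadd45g, a stress-induced gene, averaged 35.2 ± 6.90 TPM in Qk_KO and 31.2 ± 7.20 TPM in Control cortex (SD, n = 3 each).

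Of 20 synaptic and secreted activity-induced genes, 19 were tested and limma called 0, against 0.387% of tested genes. An unadjusted p under 0.05 was found for 4, against 8.72% of tested genes, and the median log2 change was 0.08. Among those 4, Arl4d had a negative log2 change (-0.29, limma, adjusted p = 0.550). Qk_KO values lay wholly above Control values for 2 of the 19 (Cyr61 and Plk2), against 5.2% of tested genes. They lay wholly below for 0, against 8.98%. Cyr61, a secreted matrix protein, was at 17.7, 9.85 and 8.44 TPM in Qk_KO cortex, against 6.35, 7.21 and 5.94 TPM in Control cortex (log2 change 0.73, SE 0.236; limma, adjusted p = 0.385). As with Fos, Qk_KO replicate 1 stood above the other libraries. Plk2, a kinase induced by synaptic activity, averaged 168 ± 6.08 TPM in Qk_KO and 150 ± 8.24 TPM in Control cortex. Vgf, a neuropeptide precursor, averaged 130 ± 18.0 and 120 ± 4.99 TPM, and Rheb, a small GTPase, 165 ± 11.9 and 179 ± 24.7 TPM, in Qk_KO and Control cortex (SD, n = 3 each).

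The 24 upstream regulators and kinases, all tested, had a median log2 change of -0.03 and 0 calls, against 0.387% of tested genes called. An unadjusted p under 0.05 was found for 1 of them, against 8.72% of tested genes. Mapk3, a kinase of the growth factor response, averaged 385 ± 27.3 TPM in Qk_KO and 388 ± 7.16 TPM in Control cortex (SD, n = 3 each). Camk2a, a calcium-dependent kinase of excitatory synapses, averaged 251 ± 4.42 TPM in Qk_KO and 279 ± 17.8 TPM in Control cortex, and Rps6ka2, a ribosomal S6 kinase, 38.4 ± 1.77 TPM in Qk_KO and 44.9 ± 2.63 TPM in Control cortex (SD, n = 3 each). Qk_KO values lay wholly below Control values for 3 of the 24 (Camk2a, Rps6ka2 and Arnt2), against 8.98% of tested genes, and wholly above for 0, against 5.2%; none passed (limma, adjusted p = 0.606, 0.487 and 0.894). Of 10 heat shock genes, which respond to handling and temperature, limma called 0, against 0.387% of tested genes. Among them 1, Dnajb1, had an unadjusted p under 0.05, which 8.72% of tested genes had. Qk_KO values lay wholly above Control values for that 1 of the 10, against 5.2% of tested genes. They lay wholly below for 0 of the 10, against 8.98%. Dnajb1 averaged 54.8 ± 3.54 TPM in Qk_KO and 45.1 ± 2.66 TPM in Control cortex, and Hspa8 2068 ± 107 and 1971 ± 38.6 TPM (SD, n = 3 each). Hsp90aa1 averaged 1209 ± 69.3 and 1203 ± 44.9 TPM, and Hspe1 170 ± 8.31 and 174 ± 14.8 TPM, in Qk_KO and Control cortex (SD, n = 3 each).

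The 10 genes whose level over the 6 libraries was most like the mean of the standardised early genes were Tekt4, Cidea, Inpp4a, Trmt112, Foxn2, Capg, Cdca3, Ptbp1, Ptgis and Klhl15, with Pearson's r from 0.972 to 0.992. They were taken from 12663 tested genes with a mean TPM of 2 or more. Tekt4, a tektin of motile cilia, was at 5.35, 4.06 and 3.70 TPM in Qk_KO cortex, against 2.32, 0.810 and 3.02 TPM in Control cortex. Capg, an actin-capping protein, was at 9.33, 7.95 and 8.26 TPM in Qk_KO cortex, against 6.09, 3.75 and 6.02 TPM in Control cortex. All 10 were lowest in Control replicate 2 and highest in Qk_KO replicate 1. The coefficients are the highest of 12663 over 6 shared libraries and are a description only.

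Markers of some cell types changed with genotype. Of 10 astrocyte markers limma called 4 (Slc1a3, S100b, Gja1 and Fgfr3), all lower in Qk_KO cortex, against 0.387% of tested genes called. The summed level of the 10 was 658 to 711 TPM in Qk_KO libraries, against 885 to 946 TPM in Control libraries; none of the 10 was at 0. Much of that difference lay in Slc1a3, a glutamate transporter, at 112 ± 4.86 TPM in Qk_KO and 265 ± 11.3 TPM in Control cortex (SD, n = 3 each). Aldh1l1, a folate enzyme of astrocytes, went the other way without passing, at 78.7, 80.9 and 71.5 TPM in Qk_KO cortex, against 50.4, 52.3 and 63.8 TPM in Control cortex (log2 change 0.47; limma, adjusted p = 0.139). Aqp4 and Sox9 overlapped between groups. Of 10 markers of the oligodendrocyte lineage 4 were called lower (Gpr17, Bcas1, Mbp and Cnp) and 1 higher (Olig2), against 0.387% of tested genes called. An unadjusted p under 0.05 was found for 8 of these 10, against 8.72% of tested genes. Among markers of excitatory neurons, interneurons, microglia, endothelium, meningeal fibroblasts, hippocampus, striatum, choroid plexus and red blood cells limma called 0. Over all tested genes 0.387% were called, so a count of 0 in lists this short says little. Summed microglia markers were 344 to 371 TPM in Qk_KO libraries and 312 to 335 TPM in Control libraries. The median log2 change of the 10 microglia markers was 0.05, and 6 of them had a positive change. Summed interneuron markers were 2266 to 2352 TPM in Qk_KO libraries and 1851 to 2098 TPM in Control libraries, and excitatory markers 975 to 1028 TPM in Qk_KO and 916 to 995 TPM in Control libraries. The interneuron difference lay mainly in the peptide genes Sst, at 1314 ± 61.9 TPM in Qk_KO and 1054 ± 141 TPM in Control cortex, and Npy, at 481 ± 70.2 TPM in Qk_KO and 387 ± 13.8 TPM in Control cortex (SD, n = 3 each). The median log2 change of the 10 interneuron markers was 0.03, and that of Vip was -0.39 (limma, adjusted p = 0.550). Hippocampal markers, from a region that adjoins the cortex and expresses Arc and Egr1, summed to 169 to 177 TPM in Qk_KO and 179 to 197 TPM in Control libraries. Summed red blood cell genes were 4146 to 10818 TPM in Qk_KO and 6965 to 12560 TPM in Control libraries, with the highest value in Control replicate 2. Choroid plexus markers summed to 734, 1087 and 810 TPM in Qk_KO libraries, against 1622, 815 and 1548 TPM in Control libraries, so Control replicate 2 was the lowest of its group. The part of these cell types in the levels of the early genes was not tested.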

How the data were processed

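The authors deposited 1 TPM value per gene and library for 6 libraries. RNA was selected for poly(A) on beads and sequenced on the Ion Proton, per the labels' protocols. Per the submitters' processing notes, STAR 2.4.1d and RSEM 1.3.0 were used with builds mm10 and GRCm38.p4; the annotation is not given in the sources used here. TPM keeps no read number, so depth and counting error are unknown, and the number of libraries limits the precision. Groups and replicate numbers come from the titles.

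The 14994 genes whose mean reached 1 TPM were fitted as log2(TPM + 1) with limma 3.58.1 in R 4.3.3 (lmFit, eBayes with trend), group as the only term, and two-sided p-values adjusted by Benjamini-Hochberg over all of them (threshold 0.05). Residual SDs were ranked among the 500 genes nearest in mean TPM. Correlations used log2(TPM + 1) with exact permutation. Motifs came from RefSeq promoters (GRCm38.p6) and GENCODE transcripts of GRCm38 (principal or longest coding, 3′ UTR of at least 50 bases). Named genes were all members, Qk, from each pathway list those called or else the 3 of highest mean TPM and the 1 of smallest p, and the 10 most alike; 1 gene that the rule names is not reported here. Egr3, Nr4a2, Nr4a3, Fosl2, Spry4, Arl4d and Arnt2 fall outside that rule and were named after their values were seen. The same holds for the cell type markers given with values or by name. Members and lists were chosen with earlier results of these data known. Alternatives were another pseudocount, filters, scaling, a replicate block and leaving out each library. Same-numbered libraries did not deviate together.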

Additional observations from a re-analysis of the deposited data

How the results depend on the processing

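None of the early genes passed in any of the 11 other settings (limma, lowest adjusted p = 0.110, for Egr1 with median-of-ratios scaling). An unadjusted p under 0.05 was found for 4 genes in the main setting. The count was 3 with no filter on low values, without Qk_KO replicate 2, and with a minimum mean of 5 TPM, where Egr2 was not tested. It was 2 without Qk_KO replicate 1 and 1 without Control replicate 2. The remaining settings gave 4, not always the same genes. Fos, Egr1, Npas4, Nr4a1 and Ier2 kept a positive log2 change in all 11, and Fosb and Egr2 in the 10 that tested them. Arc was negative in 8 and turned positive in 3, at 0.02 without Control replicate 3, 0.04 without Qk_KO replicate 2 and 0.13 without Qk_KO replicate 3. Egr4 reversed to -0.05 without Control replicate 1 and -0.10 without Qk_KO replicate 2, and Junb to 0.0043 without Qk_KO replicate 1. Over the libraries left out, Fosb ranged from 0.03 to 0.35, Npas4 from 0.12 to 0.50, Ier2 from 0.08 to 0.33, Arc from -0.42 to 0.13, Egr4 from -0.10 to 0.18 and Junb from -0.10 to 0.0043. The median of the members ranged from 0.14 to 0.35 when each library was left out.

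Over all genes, 58 were called, against 37 with no filter on low values. Dropping 1 library gave 27 (Control replicate 2) to 59 (Control replicate 1) calls, with 28, 31 and 34 without Qk_KO replicate 2, Control replicate 3 and Qk_KO replicate 3. The cause was not tested. With the replicate number as a block 38 were called, and the early genes called stayed at 0. The deviations of same-numbered libraries correlated at 0.03, 0.03 and 0.01 across genes, so the numbers were not taken as pairs. Positive pairs numbered 17 with a minimum mean of 5 TPM, which tests 8 of the 10 genes and so fewer pairs, against 30. The unknown depth limits what can be said of Egr2 and Fosb, the genes of lowest TPM.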
